A study of Rattus norvegicus with 24 samples.

Results

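Ptpro and 9 other receptor-type protein tyrosine phosphatase genes (Ptprr, Ptprj, Ptprd, Ptprs, Ptprf, Ptprn, Ptprn2, Ptprz1 and Ptpra) were followed through 24 arrays of the rat dorsal striatum. Each was taken as the transcript cluster, the set of probes that an array assigns to a transcribed locus, that carries its gene symbol. All 10 symbols had exactly 1 cluster among the 68842 measured, so no choice between clusters arose. These clusters are read by 159 to 462 probes each, where the median cluster of the array is read by 30.0. The rats were male Sprague-Dawley animals with no altered gene, prepared with intravenous catheters. Control rats (CT, n = 6) self-administered saline and received no shock. Methamphetamine (METH) rats were trained to self-administer the drug, a psychostimulant that releases dopamine in the striatum, and part of their lever presses was then punished by footshock over several days. Shock-resistant rats (SR, n = 6) went on taking METH under punishment and shock-sensitive rats (SS, n = 6) cut their intake; both groups were separated afterwards from that behaviour and not assigned at random. Yoked rats took saline and received footshocks that did not depend on their own presses, delivered with those of an SR partner (YSR, n = 3) or an SS partner (YSS, n = 3), so that YSR rats carried the larger number of shocks. Tissue was taken about a month after the last shock session and after a second cue test, 1 array per rat. The yoked groups have only 3 rats each, and the tissue is bulk striatum, in which fewer cells of a type and less RNA per cell cannot be told apart.

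Tyrosine phosphatases remove the phosphate that tyrosine kinases attach to proteins. The receptor type spans the cell membrane, with an outer part that meets ligands or neighbouring cells and an inner part that holds the phosphatase. In the brain these proteins are known for axon guidance (Ptpro, the LAR family of Ptprf, Ptprs and Ptprd), for the assembly of synapses (the LAR family), for the control of MAP kinases (Ptprr) and Src-family kinases (Ptpra, Ptprj), for dense-core vesicles that store peptides and hormones (Ptprn, Ptprn2), and for contacts between glia and neurons (Ptprz1).

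The promoters of 4 of them are shown because their genes carry the 2 patterns described below. Ptpro alone passed the study's fold and p limits, though below its limit for expressed genes. The signals of Ptprr, Ptprs and Ptprn2 followed one another most closely from rat to rat. Each is the RefSeq window of 300 bases on the GRCr8 build, from 250 bases before to 50 after the annotated start, written 5′ to 3′ on the gene's strand. Capitals mark TGACGTCA (the cAMP response element), CACGTG (the E-box) and GGGCGG or its reverse complement CCGCCC (the GC box).
Ptpro, chr4:171895261-171895560, plus strand: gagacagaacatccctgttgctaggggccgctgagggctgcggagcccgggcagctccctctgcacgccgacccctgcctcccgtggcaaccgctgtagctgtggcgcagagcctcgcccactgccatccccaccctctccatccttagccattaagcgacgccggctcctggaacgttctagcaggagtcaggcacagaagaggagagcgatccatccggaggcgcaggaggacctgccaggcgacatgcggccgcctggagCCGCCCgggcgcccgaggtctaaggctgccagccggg
Ptprr, chr7:53685989-53686288, plus strand: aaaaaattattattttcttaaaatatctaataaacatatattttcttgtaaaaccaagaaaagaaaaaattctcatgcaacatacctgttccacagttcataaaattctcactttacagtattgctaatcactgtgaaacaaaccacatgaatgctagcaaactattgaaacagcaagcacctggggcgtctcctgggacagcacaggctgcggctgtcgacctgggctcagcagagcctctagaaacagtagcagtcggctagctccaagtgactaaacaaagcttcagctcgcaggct
Ptprs, chr9:1394042-1394341, minus strand: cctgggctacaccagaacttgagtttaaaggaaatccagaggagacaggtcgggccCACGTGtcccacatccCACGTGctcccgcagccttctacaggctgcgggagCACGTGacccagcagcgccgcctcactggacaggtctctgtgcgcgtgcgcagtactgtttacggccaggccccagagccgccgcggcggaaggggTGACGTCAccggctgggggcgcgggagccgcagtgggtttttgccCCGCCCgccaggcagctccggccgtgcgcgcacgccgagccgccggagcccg
Ptprn2, chr6:143582318-143582617, plus strand: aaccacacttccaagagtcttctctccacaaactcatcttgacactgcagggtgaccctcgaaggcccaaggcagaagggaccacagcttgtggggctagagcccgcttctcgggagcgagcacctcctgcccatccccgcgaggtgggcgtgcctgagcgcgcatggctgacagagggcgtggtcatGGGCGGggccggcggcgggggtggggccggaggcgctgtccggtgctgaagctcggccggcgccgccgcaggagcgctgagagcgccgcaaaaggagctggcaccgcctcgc
The Ptprs window held 1 TGACGTCA, 3 CACGTG and 1 GC box, the Ptpro and Ptprn2 windows 1 GC box each, and the Ptprr window none of these motifs. Of 33469 rat promoter windows of the same length, 1.83% held TGACGTCA, 6.42% held CACGTG and 33.1% held the GC box on either strand. None of these motifs was found in all 3 of the Ptprr, Ptprs and Ptprn2 windows. The G and C content of the windows was 68.7% for Ptpro, 69.7% for Ptprs, 69.0% for Ptprn2 and 40.3% for Ptprr, against a median of 51.7% for all promoters. The table gave windows for 9 of the 10 genes, with 2 for Ptprd.

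The study called a gene expressed where its mean in CT rats exceeded that of bioB, a spiked-in bacterial transcript near the lower end of reliable detection, whose mean was 9.27 on the log2 scale. By that rule 7 of the 10 genes were expressed, against 9755 of 68842 clusters. Ptpro, Ptprr and Ptprf were below it. Ptprr and Ptprf stayed below bioB in every array, and Ptpro exceeded its own array's bioB in 6 of 24 arrays. The other 7 genes exceeded it in all 24. Of the markers of the labelled tissue, 7 of 7 shared by striatal neurons, 4 of 9 of D1 and 4 of 8 of D2 medium spiny neurons were above bioB, with 10 of 10 markers of oligodendrocytes and 7 of 11 of astrocytes. Markers of neighbouring structures differed between rats. Kl, a choroid plexus gene, was above bioB in 9 arrays spread over all 5 groups, and the signal averaged over 15 markers of that tissue ran from 6.15 to 10.4 in CT rats and from 6.42 to 10.7 in YSR rats. The mean of 13 cortical pyramidal neuron markers ran from 6.64 to 8.57 in CT rats and from 8.66 to 8.94 in YSS rats, with no overlap.

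**Figure D1:**
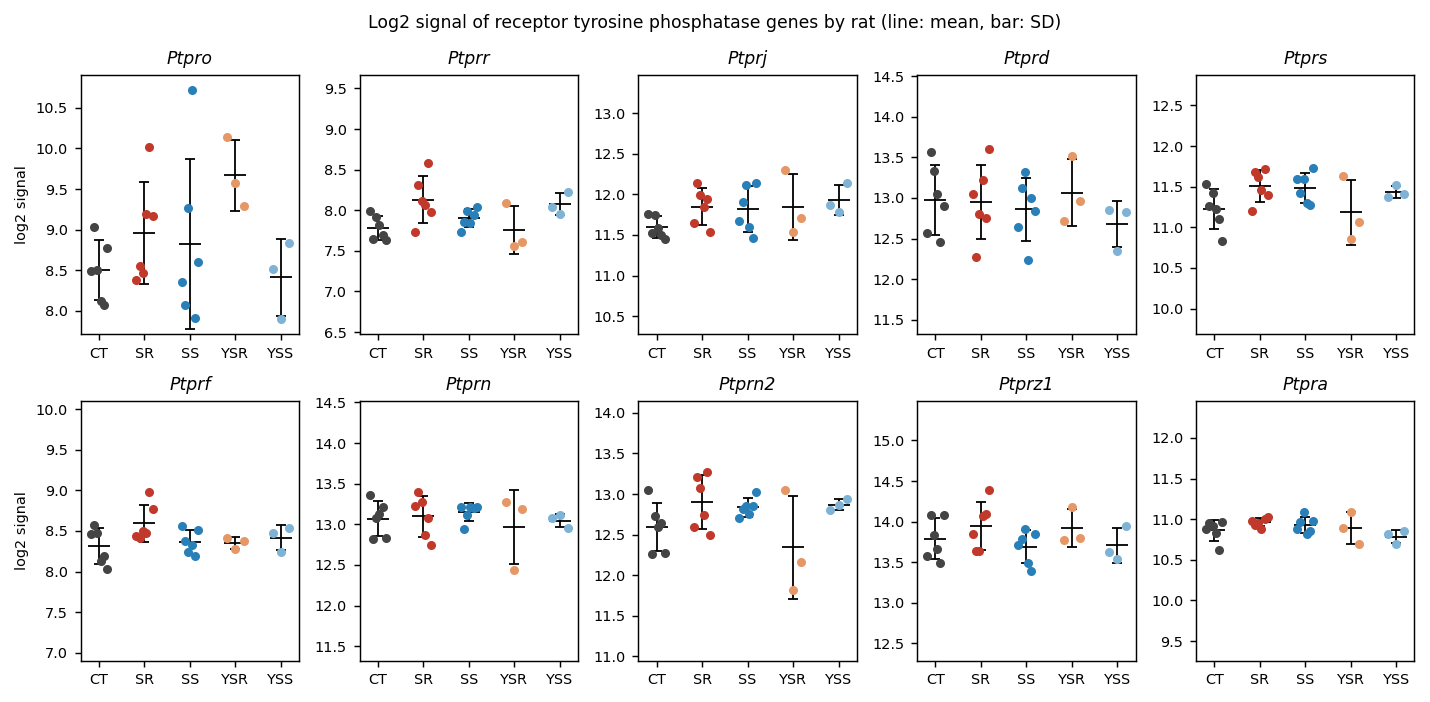
Log2 signal (vertical axis, spanning the same range of log2 units in every panel) of each gene in each rat (points), by group; the horizontal line is the group mean and the bar its SD. Ptpro spreads over 2.83 log2 units and its 3 YSR rats (9.29 to 10.14) lie above all 6 CT rats (8.07 to 9.04), whereas Ptpra spreads over 0.468.

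Ptpro (chromosome 4, 171251185 to 171461550, plus strand, in the deposited annotation, whose genome build is not named) encodes a phosphatase first known from kidney podocytes, and in chick and mouse it removes phosphate from Eph receptors, the guidance receptors of growing axons. Its log2 signal was 8.49, 9.04, 8.51, 8.12, 8.07 and 8.77 in CT rats. In YSR rats it was 10.14, 9.57 and 9.29. All 3 YSR rats were above all 6 CT rats. The YSS rats read 8.51, 7.90 and 8.84, inside or just under the CT range, so that the YSR rats were also above every YSS rat. In SR rats the values were 8.38, 8.56, 8.46, 9.19, 10.02 and 9.17. In SS rats they were 8.35, 8.08, 9.26, 10.72, 7.92 and 8.61. Most METH rats lay within or near the CT range, with SR rat 5 and SS rat 4 far above it, and the highest Ptpro signal of the series was that of SS rat 4.

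The group means of Ptpro, with SD, were 9.67 ± 0.431 in YSR rats (n = 3), 8.96 ± 0.626 in SR rats (n = 6), 8.82 ± 1.04 in SS rats (n = 6), 8.50 ± 0.370 in CT rats (n = 6) and 8.41 ± 0.477 in YSS rats (n = 3). Only the step from YSR to SR, 0.70 log2 units, was larger than the greater SD of the neighbouring pair. YSR rats exceeded CT rats by 1.17 log2 units (SE 0.445, 95% interval 0.24 to 2.09), a 2.25-fold difference with an unadjusted limma p of 0.0154 and an adjusted p of 0.99995. The exact two-sided permutation p was 0.0119, the smallest that 6 against 3 rats allow. YSR rats exceeded YSS rats by 1.25 (SE 0.514, 95% interval 0.19 to 2.32), or 2.38-fold, with an unadjusted limma p of 0.0230 and an adjusted p of 0.824. There the exact permutation p was 0.1, the smallest that 3 against 3 can give. Both differences met the fold and p criterion of the study, an unadjusted p under 0.05 and at least 1.7-fold. Ptpro was below bioB in CT rats. By the study's rule, as recomputed here, it falls outside the expressed genes to which the study applied that criterion. Whether the study's own list of expressed genes held Ptpro was not checked. Ptpro was the only one of the 10 genes to meet the fold and p criterion in either comparison, where 0.142% (YSR against CT) and 0.601% (YSR against YSS) of all clusters did. None of the 10 met it in the other comparisons, where the shares of all clusters were 0.135% (SS against YSS), 0.359% (YSS against CT), 0.0639% (SR against SS), 0.439% (SR against YSR), 0.0305% (SS against CT) and 0.106% (SR against CT). Groups that do not overlap were found for 1.71% of clusters in YSR against CT and for 9.35% in YSR against YSS. The study measured Ptpro separately among genes it described as changed in yoked rats. Whether these striatal arrays led to that choice is not stated. The standing of Ptpro in the YSR comparisons therefore cannot be taken as independent of it. Without YSR rat 1 the difference from CT was 0.93 and that from YSS 1.02, and without YSS rat 2 the latter was 0.99, each then with an unadjusted limma p above 0.05.

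METH rats were not shown to differ from CT rats in Ptpro. SR exceeded CT by 0.46 (95% interval -0.29 to 1.22, exact permutation p = 0.145) and SS exceeded CT by 0.32 (-0.43 to 1.08, exact p = 0.582). SR and SS differed by 0.14 (-0.61 to 0.89, exact p = 0.790). The SS difference rested on SS rat 4, without which it was -0.06. Against their own yoked partners, SR rats read 0.70 lower than YSR rats (95% interval of SR minus YSR -1.63 to 0.22, unadjusted limma p = 0.128, exact permutation p = 0.131), with 5 of 6 SR rats below all 3 YSR rats. This difference was -0.92 without SR rat 5, and it had an unadjusted limma p under 0.05 without that rat or without SS rat 4. SS rats read 0.41 above YSS rats (-0.51 to 1.33, exact permutation p = 0.619), and YSS rats 0.09 below CT rats (95% interval of YSS minus CT -1.01 to 0.84, exact p = 0.798). The difference between the SR minus YSR and the SS minus YSS contrasts was -1.11 (SE 0.630, 95% interval -2.42 to 0.19, limma, adjusted p = 0.962), so the 2 contrasts were not shown to differ. It was -1.325 without SR rat 5, and the unadjusted limma p was under 0.05 without that rat or without SS rat 5.

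Markers of several cell types and of the choroid plexus moved with the YSR group, and their part in the Ptpro difference was not tested. All 15 choroid plexus markers had a higher mean in YSR than in CT rats, by a median of 1.702 log2 units. An unadjusted limma p under 0.05 was found for 2 of them, where 4.13% of all clusters had such a p. In the same comparison all 7 markers shared by striatal neurons (median -0.51) and all 9 of D1 neurons (median -0.22) had a lower mean and all 13 cortical markers a higher one (median 0.30), none with such a p. In YSR against YSS all 15 choroid plexus (median 2.01), all 10 oligodendrocyte (median 0.66) and all 10 microglia markers (median 0.35) had a higher mean. The mean over the choroid plexus list was 10.2, 10.7 and 6.42 in YSR rats 1 to 3. Ptpro read 10.14, 9.57 and 9.29 in the same rats. CT rat 6, at 10.4 on that list, read 8.77 for Ptpro. Over the 9 arrays with Kl above bioB Ptpro ran from 8.08 to 10.14 (median 8.84), and over the other 15 from 7.90 to 10.72 (median 8.51). With only those 15 arrays, which leave 1 YSR rat, the YSR difference was 0.85 from CT and 1.09 from YSS, neither with an unadjusted limma p under 0.05.

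**Figure D2:**
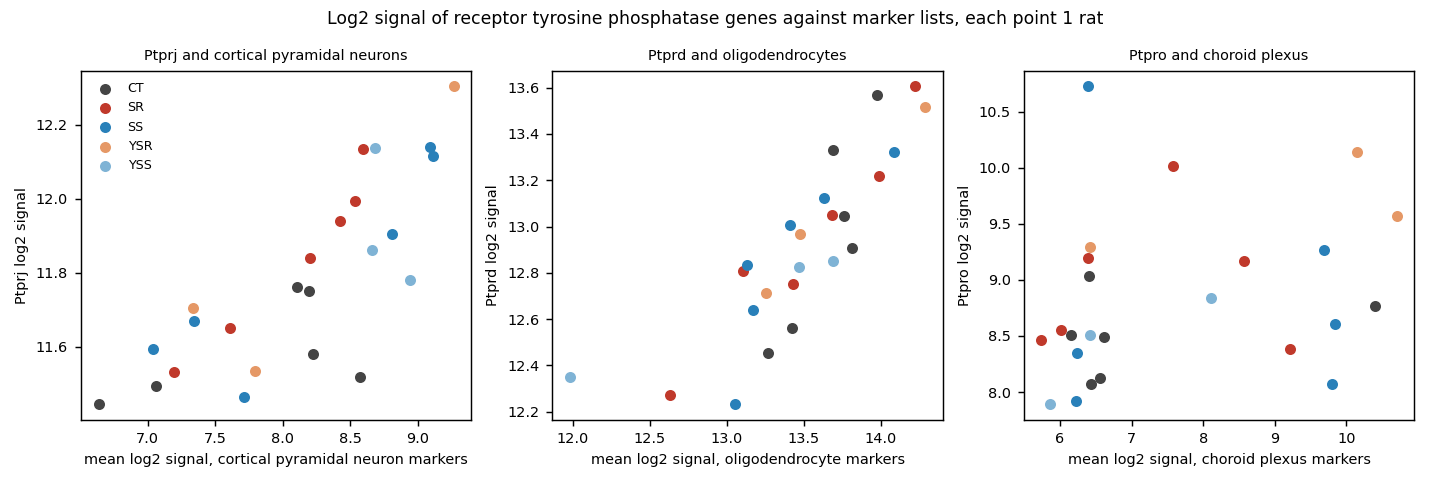
Log2 signal of Ptprj, Ptprd and Ptpro (vertical axes) against the mean log2 signal of a marker list (horizontal axes), each point 1 rat, coloured by group. Ptprj rises along the cortical list (r = 0.793) and Ptprd along the oligodendrocyte list (r = 0.848). Of the YSR rats, all with high Ptpro, rats 1 and 2 stand high on the choroid plexus list (10.2 and 10.7) and rat 3 in its lower part (6.42).

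Ptpro also differed from the other genes in how much it varied. Its SD within groups was 0.685 log2 units, larger than that of 99.0% of all clusters and of 97.2% of the 3375 clusters whose mean lay within 0.5 log2 units of its own. The other 9 genes had within-group SDs from 0.112 (Ptpra) to 0.411 (Ptprd). The clusters most like Ptpro over 24 arrays, among 17087 with a single gene name, were Npm1, which encodes nucleophosmin of the nucleolus (r = 0.69), Crygb, a lens crystallin read at a log2 signal of only 3.31 (r = 0.67), Paip2, a brake on translation (r = 0.65), Lmf2 (r = 0.64) and Slc35a2, a Golgi transporter of UDP-galactose (r = 0.63). After group means were removed these r values were 0.66, 0.62, 0.59, 0.62 and 0.55. For the other 9 genes the closest cluster reached r from 0.83 (Ptprf) to 0.94 (Ptprd).

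**Figure D3:**
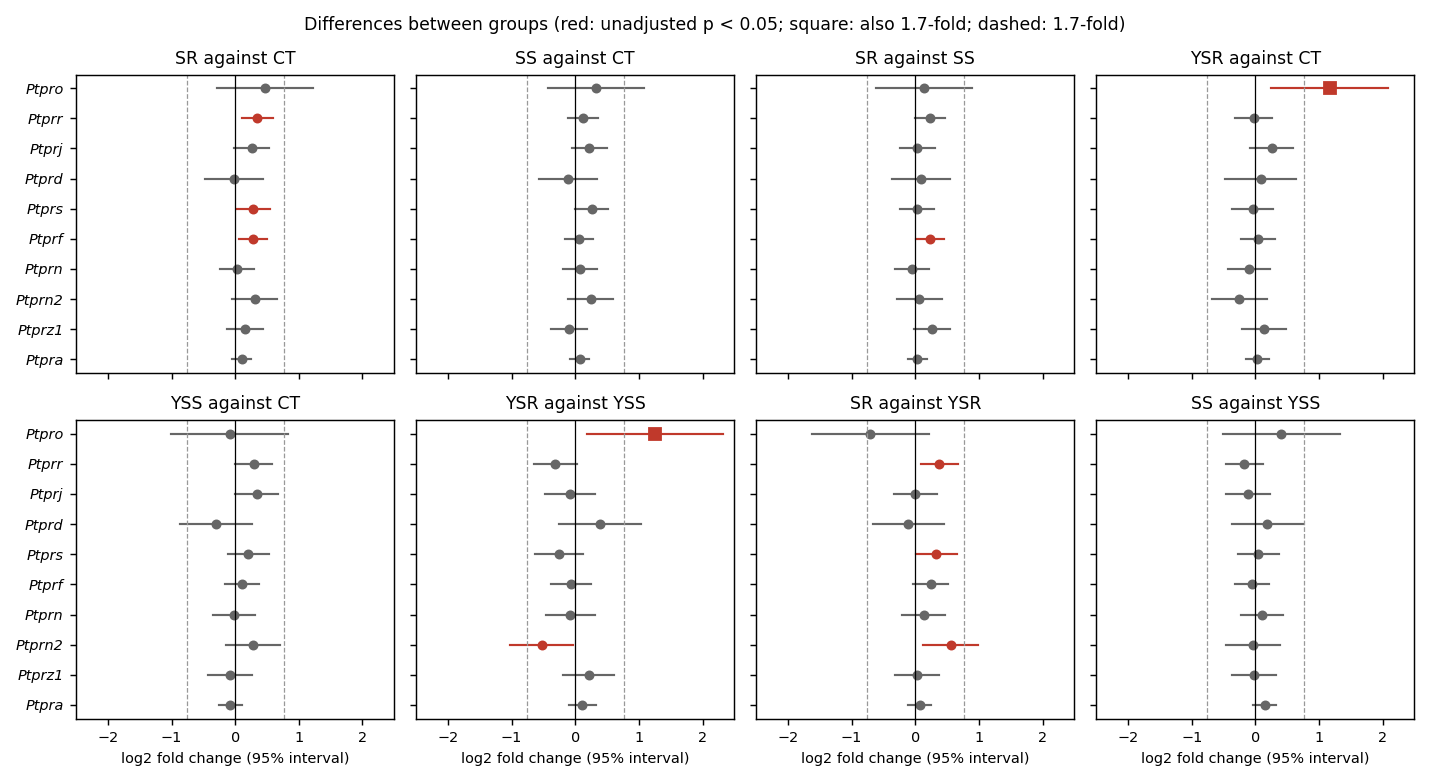
Difference of group means for each gene (points) with its 95% interval (lines), in log2 units, in 8 comparisons named first minus second group; red marks an unadjusted limma p under 0.05, squares also a fold of at least 1.7, and dashed lines that fold. Ptpro in YSR against CT (1.17) and against YSS (1.25) are the only squares.

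Ptprj (chromosome 3, 79233519 to 79390956, minus strand) shares the single phosphatase domain and the fibronectin-like outer part of Ptpro, and it acts on growth factor receptors and Src-family kinases. Its signal in YSS rats was 11.86, 11.78 and 12.14. In CT rats it was 11.76, 11.52, 11.75, 11.58, 11.50 and 11.45. The YSS rats were all above the CT rats, by 0.33 log2 units (SE 0.166, 95% interval -0.01 to 0.68, limma p = 0.0555), and the exact permutation p was 0.0119, the smallest possible. Such separation was found for 2.16% of clusters. This was the largest difference of the 10 genes between YSS and CT. It moved with the cortical markers, all 13 of which had a higher mean in YSS than in CT rats (median 1.04). Of these markers 2 had an unadjusted p under 0.05, where 5.16% of all clusters did. The unadjusted limma p of the Ptprj difference fell under 0.05 when CT rat 1 or 3, SS rat 5 or 6, YSR rat 1 or 2, or YSS rat 2 was left out, with differences from 0.33 to 0.41. Without YSS rat 3 the difference was 0.23, with a p above 0.05. SR rats had a mean of 11.85 ± 0.224 (n = 6), SS rats 11.82 ± 0.282 (n = 6) and YSR rats 11.85 ± 0.404 (n = 3). These groups differed from one another by less than their SDs. SR rats exceeded CT rats by 0.26 (limma p = 0.0715, exact permutation p = 0.0433), with 4 of 6 above every CT rat. SS and YSR rats exceeded CT rats by 0.22 (exact permutation p = 0.115) and 0.25 (exact p = 0.190).

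Ptprr (chromosome 7, 59039712 to 59325925, plus strand) binds and inactivates the MAP kinases ERK and p38. Its signal in SR rats was 7.74, 8.32, 8.11, 8.06, 8.58 and 7.98. In CT rats it was 7.99, 7.64, 7.92, 7.82, 7.69 and 7.63. SR rats 2 to 5 were above every CT rat and the others within the CT range. The difference was 0.35 (SE 0.116, 95% interval 0.11 to 0.59), or 1.27-fold, with an unadjusted limma p of 0.00618, an adjusted p of 0.860 and an exact permutation p of 0.0238. YSR rats read 8.09, 7.56 and 7.61, and SR rats exceeded them by 0.38 (SE 0.142, limma p = 0.0143, exact p = 0.107). Without YSR rat 2 or YSR rat 3 that difference was 0.28 or 0.30, with an unadjusted p above 0.05. YSS rats, at 8.04, 7.96 and 8.22, were on the contrary 0.17 above SS rats, which read 7.73, 7.86, 7.99, 7.84, 7.94 and 8.03. The SR minus YSR contrast exceeded the SS minus YSS contrast by 0.55 (SE 0.201, 95% interval 0.13 to 0.96, limma, adjusted p = 0.954). The unadjusted p was under 0.05, as for 5.16% of clusters, and after adjustment the 2 contrasts were not shown to differ. Ptprr was the only one of the 10 genes with an unadjusted p under 0.05 in the F test over the 5 groups (limma, adjusted p = 0.924), a level that 5.03% of clusters reached. The call was lost without SR rat 2, SR rat 5 or YSR rat 3.

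The LAR family organizes synapses from the presynaptic side, each member binding postsynaptic adhesion proteins, and Ptprs also binds chondroitin sulphate proteoglycans that stop axon growth. Ptprs (chromosome 9, 10585360 to 10646835, plus strand in the deposited annotation but minus strand on GRCr8) read 11.20, 11.68, 11.62, 11.46, 11.72 and 11.40 in SR rats. In CT rats it read 11.53, 11.26, 11.42, 11.22, 11.10 and 10.83. SR rats 2, 3 and 5 were above every CT rat. The mean was 0.28 higher in SR rats (SE 0.127, unadjusted limma p = 0.0355, adjusted p = 0.860, exact permutation p = 0.0519). The limma p was above 0.05 when any 1 of CT rats 4, 5 and 6 or SR rats 2, 3 and 5 was left out, and the difference was smallest, 0.21, without CT rat 6. The rise was not particular to SR rats. SS rats exceeded CT rats by 0.26 (limma p = 0.0561, exact permutation p = 0.0649), with 3 of 6 above every CT rat. YSS rats exceeded CT rats by 0.21 (exact permutation p = 0.262), and SR exceeded SS rats by only 0.03. SR rats also exceeded YSR rats (11.63, 10.86 and 11.07) by 0.33 (SE 0.156, limma p = 0.0461, exact p = 0.131), a difference of 0.17 without YSR rat 2 and a call lost in 13 of 24 settings with an array left out.

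Ptprf (chromosome 5, 137036936 to 137113293, minus strand) is LAR itself. It read 8.43, 8.42, 8.50, 8.48, 8.98 and 8.77 in SR rats. In CT rats it read 8.46, 8.58, 8.48, 8.13, 8.19 and 8.03. SR rats 5 and 6 were above every CT rat, and the others lay among the higher CT rats. SR exceeded CT by 0.28 (SE 0.107, unadjusted limma p = 0.0147, adjusted p = 0.860, exact permutation p = 0.0671), or by 0.21 without SR rat 5, with an unadjusted limma p above 0.05. SS rats ran from 8.20 to 8.56 (median 8.35). The SR rats exceeded them by 0.23 (SE 0.107, limma p = 0.0464, exact p = 0.0649), and the limma p was above 0.05 in 10 of 24 settings with an array left out, the smallest difference being 0.15 without SR rat 5. The third member, Ptprd (chromosome 5, 92862229 to 93365630, minus strand), had group means from 12.68 ± 0.283 in YSS rats (n = 3) to 13.07 ± 0.410 in YSR rats (n = 3), and no comparison had a p under 0.05.

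Ptprn and Ptprn2 (IA-2 and its relative phogrin) sit in the membrane of dense-core vesicles, have little or no phosphatase activity, and are known as autoantigens in autoimmune diabetes. Ptprn2 (chromosome 6, 144384770 to 145133042, plus strand) read 12.60, 13.22, 13.07, 12.74, 13.27 and 12.50 in SR rats. In YSR rats it read 13.05, 11.82 and 12.16, so that rats 2 and 3 were the 2 lowest of the series and rat 1 among the highest. The SR mean was 0.56 above the YSR mean (SE 0.208, 95% interval 0.13 to 0.99, unadjusted limma p = 0.0136, adjusted p = 0.748, exact permutation p = 0.107). Without YSR rat 2 it was 0.30 above, and without YSR rat 3 0.47, with an unadjusted p above 0.05 each time, whereas without YSR rat 1 it was 0.91 above and past the criterion. YSS rats read 12.81, 12.86 and 12.94, and the YSR mean was lower than theirs by 0.53 log2 units (YSR minus YSS -0.53, SE 0.240, limma p = 0.0382, exact p = 0.4). Without YSR rat 2 this was -0.27 and the call was lost, and leaving out any other yoked rat except YSR rat 1 also ended the call. Without YSR rat 1 it was -0.88, again past the criterion. Ptprn (chromosome 9, 82446621 to 82462299, minus strand) had group means between 12.97 ± 0.457 (YSR, n = 3) and 13.15 ± 0.111 (SS, n = 6) and no p under 0.05.

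Ptprz1 (chromosome 4, 49941054 to 50140764, plus strand) is carried by astrocytes and oligodendrocyte precursors and binds pleiotrophin, contactin and tenascins. Its signal was 13.84, 13.64, 13.64, 14.08, 14.10 and 14.38 in SR rats. In SS rats it was 13.72, 13.79, 13.91, 13.49, 13.39 and 13.85. SR rats 4, 5 and 6 were above every SS rat. The SR mean was higher by 0.26 (SE 0.137, 95% interval -0.03 to 0.54, limma p = 0.0744, exact permutation p = 0.117), the largest SR against SS difference of the 10 genes. Without SR rat 6 it was 0.17, and the unadjusted limma p was under 0.05 when SR rat 2, SR rat 3 or SS rat 3 was left out (0.30 to 0.32) and after quantile normalization (0.29). Ptpra (chromosome 3, 122976028 to 123084864, plus strand), which switches on Src-family kinases, was the steadiest gene. Its mean was 10.86 ± 0.127 in CT rats (n = 6), 10.96 ± 0.0517 in SR rats (n = 6) and 10.78 ± 0.0836 in YSS rats (n = 3). No comparison had an unadjusted limma p under 0.05. SS rats, with a mean of 10.93 ± 0.100 (n = 6), exceeded YSS rats by 0.15 (limma p = 0.108, exact permutation p = 0.0476). Of the SS rats 5 of 6 were above every YSS rat.

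Counted over the 10 genes, an unadjusted limma p under 0.05 was found for 3 in SR against CT (5.41% of all clusters), 3 in SR against YSR (6.41%), 2 in YSR against YSS (6.05%), 1 in SR against SS (3.56%), 1 in YSR against CT (4.13%), 0 in YSS against CT (5.16%), 0 in SS against YSS (5.7%) and 0 in SS against CT (5.17%). All 3 in SR against CT and all 3 in SR against YSR were higher in SR rats, where 1.72% and 2.67% of clusters were called in that direction. The median difference of the 10 genes was 0.27 in SR against CT, with 9 higher, against a median of -0.04 over all clusters. In SS against CT it was 0.10 against -0.02. No cluster of the array, these included, had an adjusted limma p under 0.05 in any comparison, and the smallest adjusted p of any cluster was 0.0712 (SS against YSS). CT rats serve in 4 of the comparisons and each other group in 3, so the counts are not independent of each other.

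From rat to rat the genes fell into sets that moved together. Of 45 pairs, 16 had a Pearson r over 24 arrays with an adjusted permutation p under 0.05. Ptprr, Ptprj, Ptprs and Ptprn2 were joined in every pair, with r from 0.686 to 0.863. The closest pair was Ptprs and Ptprn2 (r = 0.863, rho = 0.848, permutation p = 1e-05 for each, the smallest that 100000 permutations can give, adjusted 0.00015 and 0.000225). Leaving out the 2 rats farthest from the Ptprs median gave r = 0.800, and removing group means gave 0.826. For Ptprr and Ptprn2 r was 0.850 (rho 0.869, permutation p = 1e-05 for each, adjusted 0.00015 and 0.000225, 0.845 without the 2 farthest rats, 0.859 within groups). Ptprd and Ptprz1 moved together (r = 0.706, rho = 0.652, permutation p = 0.00013 and 0.00072, adjusted 0.000836 and 0.00324, 0.603 without the 2 farthest, 0.722 within groups). Ptprn moved against Ptprz1 (r = -0.760, rho = -0.699, permutation p = 4e-05 and 0.00023, adjusted 0.00045 and 0.00125, -0.680 without the 2 farthest, -0.817 within groups). Ptpro stood outside all of these sets. None of its 9 pairs had an adjusted p under 0.05 for r. The largest r was 0.380, with Ptprz1 (permutation p = 0.0680, adjusted 0.153), although rho there was 0.535 (permutation p = 0.00819, adjusted 0.0283) and r rose to 0.777 without the 2 rats of most extreme Ptpro signal. Here r and rho give different answers, and the relation depends on those rats.

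**Figure D4:**
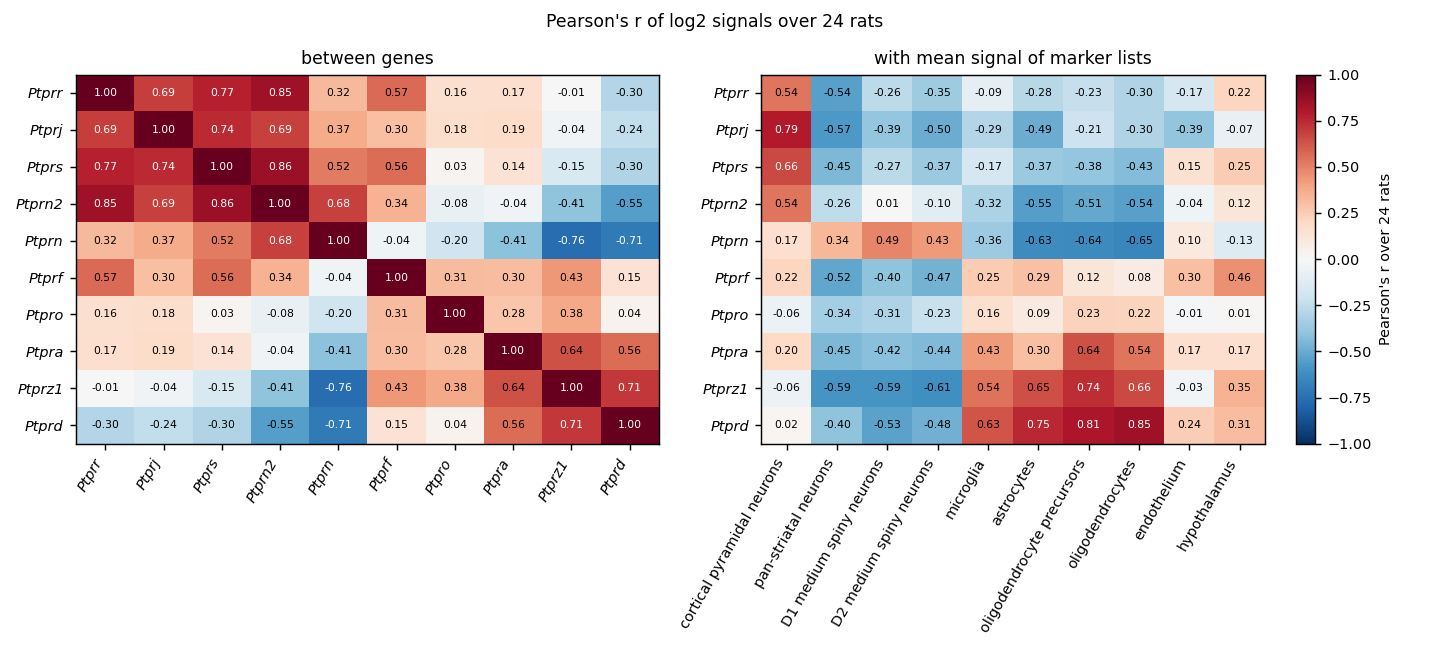
Pearson's r over 24 rats (colour and number) between the genes (left) and between each gene and the mean log2 signal of marker lists (right). Ptprr, Ptprj, Ptprs and Ptprn2 form a block at the top left (r from 0.686 to 0.863), Ptprd and Ptprz1 follow glial lists, and the row of Ptpro is pale in both panels.

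The sets followed markers of cell types and neighbouring tissue. Among 100 relations between genes and 10 marker lists, 30 had an adjusted permutation p under 0.05 for r. The choroid plexus list, whose values fall into separate clusters of rats, was left out of them. Ptprd followed oligodendrocyte markers (r = 0.848, rho = 0.877, permutation p = 1e-05 for each, the smallest possible, adjusted 0.0005, 0.863 without the 2 farthest rats, 0.838 within groups). Ptprz1 followed markers of oligodendrocyte precursors (r = 0.741, rho = 0.693, permutation p = 3e-05 and 0.00025, adjusted 0.0006 and 0.00417, 0.746 without the 2 farthest, 0.755 within groups). Ptprn went the other way along the oligodendrocyte list (r = -0.650, rho = -0.759, permutation p = 0.00096 and 2e-05, adjusted 0.00762 and 0.0005, -0.792 without the 2 farthest, -0.704 within groups). Ptprj followed the cortical list (r = 0.793, rho = 0.797, permutation p = 3e-05 and 2e-05, adjusted 0.0006 and 0.0005, 0.773 without the 2 farthest, 0.789 within groups). Ptprs did so too (r = 0.664, rho = 0.641, permutation p = 0.00042 and 0.00095, adjusted 0.007 and 0.00864, 0.585 without the 2 farthest, 0.737 within groups), as did Ptprr (r = 0.539, permutation p = 0.00622, adjusted 0.0283) and Ptprn2 (r = 0.537, permutation p = 0.00611, adjusted 0.0283), with rho of 0.598 and 0.590. Ptprr and Ptprj went the other way along the list shared by striatal neurons, Ptprr with r = -0.543 (rho = -0.576, permutation p = 0.00556 and 0.00377, adjusted 0.0283 and 0.0209, -0.398 without the 2 farthest, -0.573 within groups) and Ptprj with r = -0.575 (rho = -0.577, permutation p = 0.00373 and 0.00368, adjusted 0.0219 and 0.0209, -0.477 without the 2 farthest, -0.527 within groups). Ptprz1 and Ptprf also went against that list. For Ptprz1 r was -0.587 (rho = -0.572, permutation p = 0.00264 and 0.004, adjusted 0.0165 and 0.0211, -0.612 without the 2 farthest, -0.620 within groups). For Ptprf r was -0.521 (rho = -0.470, permutation p = 0.00811 and 0.0216, adjusted 0.0312 and 0.0697, -0.431 without the 2 farthest, -0.524 within groups). In SR against CT the cortical list had a median difference of 0.27, with 10 of 13 markers higher and none with a p under 0.05. All 7 striatal markers had a lower mean there (median -0.43), also none with such a p. The part of either list in the Ptprr and Ptprs differences was not tested. In YSR rats the cortical list read 9.27, 7.80 and 7.34, and rat 1 was likewise the highest of the 3 for Ptprr, Ptprj, Ptprs and Ptprn2. None of the 10 relations of Ptpro had an adjusted p under 0.05, the largest r being 0.337 in size. With D2 markers r was -0.225 over all rats and -0.582 without the 2 rats farthest from the median of that list, so that this relation depends on them. All of these r values are over rats and share the same arrays, and the relations were looked at after the values of the genes were known.

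Genes that work with these phosphatases were read from lists, by the same fit. Of 11 other receptor phosphatases, Ptprg, a binder of contactins, exceeded its CT level in SR rats by 0.52 (SE 0.217, adjusted limma p = 0.860, exact permutation p = 0.0584) and in YSS rats by 0.69 (SE 0.266, adjusted p = 0.954, exact p = 0.0357). Its YSS and CT rats did not overlap, as for 2.16% of clusters. All 13 cortical markers had a higher mean in YSS than in CT rats (median 1.04), and their part in the YSS differences of Ptprg, Ppfia2 and Epha6 was not tested. Ptprc, the CD45 of immune cells, was below its CT level in YSS rats (YSS minus CT -0.29, exact permutation p = 0.0119). The 2 groups did not overlap, as for 2.16% of clusters. The Ptprc means, 6.07 in YSS and 6.37 in CT rats, lay below the bioB mean of 9.27. All 10 microglia markers (median -0.28) and all 10 oligodendrocyte markers (median -0.58) also had a lower mean in YSS than in CT rats, and their part was not tested. The list had 1 of 11 genes with an unadjusted limma p under 0.05 in SR against CT (5.41% of all clusters), 2 in YSS against CT (5.16%), 1 in YSR against YSS (6.05%) and none elsewhere. Of 17 non-receptor phosphatases, 4 were above bioB and at most 2 had an unadjusted limma p under 0.05 in any comparison. Depending on the comparison, 3.56% to 6.41% of all clusters had such a p. Ptpn11 (SHP-2, a relay of receptor kinases to ERK) was higher in YSR than in YSS rats by 0.41 (exact permutation p = 0.3) and below CT in YSS rats (YSS minus CT -0.36, exact p = 0.107).

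Among 16 synaptic ligands and liprins of the LAR family, Ppfia2 (liprin alpha 2, which binds the inner part of LAR phosphatases) exceeded its CT level in SR rats by 0.44 (SE 0.154, adjusted limma p = 0.860, exact permutation p = 0.0238) and in YSS rats by 0.50 (SE 0.188, adjusted p = 0.954, exact p = 0.0119). Its YSS and CT rats did not overlap, as for 2.16% of clusters. Il1rapl1, a postsynaptic partner of Ptprd, differed from CT in the same groups by 0.28 (exact permutation p = 0.0519) and 0.30 (exact p = 0.0595). The list had 2 of 16 genes with an unadjusted limma p under 0.05 in SR against CT (5.41% of all clusters), with 15 of 16 higher and a median of 0.12 against -0.04 over all clusters. In SS against CT 14 of 16 were higher, with a median of 0.12 against -0.02 and none with such a p. In SR against YSR the list had 4 of 16 (6.41% of all clusters), all higher in SR rats, and a median of 0.23 against -0.01. The last 4 included Slitrk3 (0.62, exact permutation p = 0.0595) and Slitrk2 (0.31, exact p = 0.0476), postsynaptic binders of LAR-family phosphatases. With 1 array left out, the list count in SR against YSR ran from 0, without YSR rat 2, to 6. Ppfia2 was also the cluster closest to Ptprr over the 24 arrays (r = 0.94), a pair named after its values were seen.

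Dense-core vesicle genes, the cargo and machinery that travel with Ptprn and Ptprn2, had 3 of 11 with an unadjusted limma p under 0.05 in SR against CT, all higher in SR rats, where 5.41% of all clusters had such a p and 1.72% in that direction. Scg2 (secretogranin II) differed by 0.76 (SE 0.250, adjusted limma p = 0.860, exact permutation p = 0.0303), Chga (chromogranin A) by 0.64 (SE 0.279, exact p = 0.0952) and Chgb (chromogranin B) by 0.38 (SE 0.154, exact p = 0.0584). The list had a median of 0.38 there, with 8 of 11 higher. In SS against CT 10 of 11 were higher (median 0.12), none with such a p. In YSS against CT 10 of 11 were higher too (median 0.24), and Chgb was the 1 with such a p, where 5.16% of all clusters had one. Chgb differed there by 0.46 (exact permutation p = 0.0238), with no overlap, as for 2.16% of clusters. Ptprn2 itself differed by 0.31 in SR against CT (exact permutation p = 0.123) and by 0.28 in YSS against CT (exact p = 0.155). Ptprn differed by 0.03 and -0.02 in the same comparisons. Scg2 and Chgb also exceeded their YSR level in SR rats, by 0.87 (exact permutation p = 0.0714) and 0.48 (exact p = 0.131). Chgb was lower in YSR than in YSS rats (YSR minus YSS -0.56, exact permutation p = 0.3), the same direction as Ptprn2, and it was the second closest cluster to Ptprn2 (r = 0.92), again named after its values were seen.

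Of 4 ligands of Ptprz1, Tnc (tenascin C) was higher in YSR than in YSS rats by 1.19 (SE 0.464, adjusted limma p = 0.824, exact permutation p = 0.1). These groups did not overlap, as for 9.35% of clusters. Tnc was below CT in YSS rats (YSS minus CT -0.85, exact p = 0.131) and lower in SR than in YSR rats (SR minus YSR -0.85, exact permutation p = 0.107). All 3 differences were past the fold and p limits of the criterion, which 0.601%, 0.359% and 0.439% of all clusters met. The Tnc means of 6.14 in YSS, 6.48 in SR, 6.99 in CT and 7.33 in YSR rats all lay below the bioB mean of 9.27. Of 18 kinases that the phosphatases are known to act on, Epha6, an Eph receptor, exceeded its CT level in SR rats by 0.61 (SE 0.210, exact permutation p = 0.0411) and in YSS rats by 0.62 (exact p = 0.107). Yes1, a Src-family kinase, and Ephb1, another Eph receptor, were below CT in YSS rats (YSS minus CT -0.54, exact permutation p = 0.0238, and -0.50, exact p = 0.0595). The list had 5 of 18 genes with an unadjusted limma p under 0.05 in YSS against CT (2 higher and 3 lower, where 5.16% of all clusters had such a p) and 0 of 18 in YSR against CT (4.13%).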

How the data were processed

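Total RNA from the dorsal striatum of each rat was hybridised to an Affymetrix Rat Transcriptome Array. The deposited values are log2 signals that the authors summarized with Affymetrix Expression Console, as the submitters' processing notes name it; version and algorithm are not given in the sources used here. The deposited annotation supplied symbols and coordinates and names no build. Of 70580 rows, 1738 controls were left out, and limma 3.58.1 in R 4.3.3 (cell means of 5 groups, eBayes) was fitted to 68842 clusters, with Benjamini-Hochberg adjustment over all of them. The study tested expressed genes; all clusters were fitted here because 3 of the 10 genes lie below bioB. Array medians ran from 5.11 to 5.32 and array correlations from 0.988 to 0.9963; the number of arrays limits precision. Exact permutation tests were two-sided on differences of means, and relations used 100000 permutations. Named were Ptpro in every comparison, genes with an unadjusted p under 0.05, the largest difference of each comparison, up to 3 list genes per comparison, and the 5 clusters most like Ptpro. The genes and lists were chosen with earlier results of these data known. Columns of fold changes and p-values made by the authors were not used. The fit was tested on simulated data. Alternatives covered normalization, filters, moderation, samples, fold limits and single arrays.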

Additional observations from a re-analysis of the deposited data

Results flagged for a closer look

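Ptprn in SS rats was marked because 1 rat lay far from the others. SS rat 2 read 12.94 (12.937), while 4 of the other 5 lay near 13.21 and the fifth at 13.11. Of 30 groups of 6 rats looked at in this way, chance marks about 1 in 20.

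Ptprr was marked because its SR and SS contrasts with their yoked groups lay 0.55 log2 units apart (SR minus YSR less SS minus YSS, limma, adjusted p = 0.954). The unadjusted p of this test of the difference itself was under 0.05, as for 5.16% of all clusters. SR rats were 0.38 above YSR rats, and SS rats 0.17 below YSS rats (SS minus YSS -0.17).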

How the results depend on the processing

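The signal of Ptpro lies near the detection limit that bioB sets, and the yoked groups have 3 rats each, so that a single array can carry a difference. The 20 differences of the 10 genes followed here were recomputed as 158 values under settings other than leaving out 1 array. Of these, 137 kept their direction and their side of an unadjusted p of 0.05, 18 lost that p, 2 gained it and 1 turned. The one that turned was Ptpro in YSS against CT under the replicate block, 0.11 in place of -0.09. Ptpro kept its criterion in YSR against CT and YSR against YSS under every normalization, moderation and fold limit tried, and lost it only when arrays were removed. Each gene had a single cluster, so the second-highest cluster could not be tried. Leaving out 1 array gave 480 values, of which 418 were kept in the same sense, 42 lost and 14 gained that p and 6 turned. The cause of the changes below was not tested, except that fewer arrays or clusters enter some settings.

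Genes of the 10 with an unadjusted limma p under 0.05 in SR against SS numbered 3 after quantile normalization and 0 after median centring, with trended and robust moderation, with no moderation, with only the 2 groups compared and with the replicate block, in place of 1. In YSR against YSS they numbered 1 in place of 2 after median centring, with no moderation and with only the 2 groups. In SS against CT they numbered 1 in place of 0 after median centring and with only the 2 groups. With only the 2 groups there were also 2 in place of 0 in YSS against CT and 0 in place of 3 in SR against YSR. The F test called 0 with the replicate block in place of 1. Same-numbered rats did not move together (39 pairs, correlations of their deviations from group means from -0.687 to 0.642, median -0.115, with 6 of 24 arrays closest to a rat of their own number), so the numbers were not taken to pair rats.

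Without the 9 arrays with Kl above bioB, which leaves 1 YSR rat whose spread is assumed to be that of the other groups, Ptpro differed by 0.85 in YSR against CT and by 1.09 in YSR against YSS, neither with p under 0.05. Genes at the criterion were then 0 in both, in place of 1, and 1 in SR against YSR in place of 0. Genes with p under 0.05 were 2 in SR against SS, 0 in YSR against CT and 1 in YSR against YSS, and the F test called 4.

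Leaving out 1 array at a time, Ptpro differed by 0.99 to 1.46 in YSR against YSS, 0.93 to 1.355 in YSR against CT, -0.92 to -0.47 in SR against YSR, 0.03 to 0.62 in SS against YSS, 0.25 to 0.58 in SR against CT, -0.071 to 0.52 in SR against SS, -0.30 to 0.17 in YSS against CT and -0.058 to 0.50 in SS against CT, and its interaction ran from -1.325 to -0.73. Its sign turned in SR against SS without SR rat 5 (-0.071), SS rat 2 or SS rat 5 (both closer to 0), in SS against CT without SS rat 4 (-0.058), and in YSS against CT without CT rat 2 (close to 0) or YSS rat 2 (0.17). The counts at p under 0.05 ran from 0 to 3 in YSR against YSS, 1 to 2 in YSR against CT, 0 to 4 in SR against YSR, 1 to 5 in SR against CT, 0 to 2 in SR against SS, YSS against CT and SS against CT, and 0 to 3 in the F test. The counts at the criterion ran from 0 to 1 in YSR against CT, YSR against YSS and SR against YSR. List counts at p under 0.05 ran from 0 to 6 for LAR-family ligands and liprins in SR against YSR. They ran from 1 to 4 for dense-core vesicle genes in SR against CT and from 2 to 6 for kinases in YSS against CT. Of 1152 such counts over all lists and comparisons, 187 changed by more than 1.5-fold or to or from 0.

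Over all clusters the criterion called 73, 21, 44, 98, 247, 414, 302 and 93 for SR minus CT, SS minus CT, SR minus SS, YSR minus CT, YSS minus CT, YSR minus YSS, SR minus YSR and SS minus YSS. Leaving out 1 array gave 21 to 289, 16 to 70, 24 to 100, 77 to 449, 151 to 548, 135 to 948, 117 to 611 and 69 to 290. With only clusters above bioB and the 10 genes tested it called 22, 3, 6, 21, 61, 139, 134 and 16 in the same order. A limit of 1.5-fold gave 184, 87, 96, 188, 508, 786, 544 and 242, and a limit of 2-fold gave 28, 7, 13, 40, 85, 236, 192 and 36. With no moderation SR against SS had 28. Without the arrays with Kl above bioB the counts were 196, 171, 541 and 203 for the first 4, and 700, 988 and 467 for the last 3. No cluster had an adjusted p under 0.05 in any comparison by limma over all arrays, where 2453 to 4410 had an unadjusted p under 0.05.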
